A study of Homo sapiens with 6 samples.

Results

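LINC genes are long intergenic noncoding RNA genes that carry a number in place of a descriptive name. The analysis covered the entries named LINC plus a number that lay on a primary chromosome and had at least 10 counts in at least 3 of the 6 libraries. Of 2160 such entries on the primary chromosomes, with 2157 names, 204 met this count limit, out of 41497 named entries in all. Another 1345 had no count in any library, and 611 had counts under the limit. RNA was sequenced from HK-2 cells, a human kidney line immortalised from proximal tubule epithelium and wild type in genotype, that were left untreated or were treated with TGF-β1 for 24 hours. There were 3 control and 3 TGF-β1 libraries. The labels describe maintenance in medium with serum, while the methods describe TGF-β treatment as serum-free, and the methods give a TGF-β dose for treatment in general without naming the sequenced cells. Nothing stated that the libraries of a group came from separate cultures, so the p-values measure the spread between these libraries, which may be technical. HK-2 is 1 cell line, without the other cells of a kidney.

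A long noncoding RNA is transcribed and often spliced like an mRNA but is not known to encode a protein. Members of this class have been described to act on the gene next to their own, to hold chromatin or protein complexes in place, or to bind microRNAs, and for many the act of transcription rather than the RNA has been proposed to matter. TGF-β1 signals through its receptor kinases to SMAD transcription factors, and in tubular cells it lowers epithelial genes and raises those of the extracellular matrix. A number in the name says nothing of function, and most LINC genes have no assigned role.

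The libraries held 21.9 to 26.8 megacounts (M) in named genes, and the TGF-β target genes SMAD7, an inhibitor of the pathway, and COL1A1, a fibrillar collagen gene, were called higher after TGF-β1. Of 14 tubular markers, 11 passed the filter on low counts, with 5 higher and 6 lower after TGF-β1. PAX8 was at 251 ± 13.9 CPM, a count scaled to library size, in control and 151 ± 12.1 CPM after TGF-β1 (SD, n = 3 each), whereas LRP2, the endocytic receptor of the proximal tubule, had no count. KRT8 rose from 488 ± 15.2 to 764 ± 62.0 CPM and CDH2 from 304 ± 3.94 to 629 ± 19.5 CPM. The tubular list summed to 1483 CPM in control and 1967 CPM after TGF-β1. Of 5 fibroblast markers, 3 were tested. PDGFRB went from 0.551 ± 0.0938 to 5.79 ± 0.429 CPM and COL6A3 from 0.112 ± 0.0442 to 1.55 ± 0.0908 CPM, both called higher, while LUM went from 61.7 ± 5.12 to 51.0 ± 1.05 CPM and was called lower. The list summed to 62.5 CPM in control and 58.6 CPM after TGF-β1, most of it LUM, and DCN and PDGFRA were each under 0.2 CPM on average. Endothelial markers summed to 1.14 CPM in control and 0.0128 CPM after TGF-β1, and among the immune markers CD68 gave 96.7 and 71.0 CPM while CD3E had no count. The part of these marker changes in the changes of LINC genes was not tested. In bulk RNA, fewer cells that express a gene and less of its RNA per cell cannot be told apart.

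The LINC genes were a small share of the RNA. The 204 genes held 0.106%, 0.108% and 0.111% of counts in the control libraries and 0.0931%, 0.0964% and 0.0939% in the TGF-β1 libraries, so the lowest control library lay above the highest TGF-β1 library. Their summed level was 1025, 1035 and 1058 CPM in control and 958, 1005 and 980 CPM after TGF-β1. LINC00472 fell from a mean of 72.4 to 26.8 CPM and LINC01111 from 37.4 to 8.16 CPM. These falls were large beside the difference in summed level, and other members changed in both directions. The lower sum therefore does not show a fall of the members in general, and the sum without LINC00472 and LINC01111 was not computed. The 5 most abundant members held 26.3% of the members' counts and the 20 most abundant held 57.1%. A typical member was low, with a median of 1.31 CPM and a range from 0.302 to 80.6 CPM over the 6 libraries. Per length, on the TPM scale that divides counts by exon length and library size, the median member was at 2.67 TPM, against 21.4 TPM for the median protein-coding gene that was tested. LINC01508 was highest on that scale, with a mean of 76.2 TPM in control and 123 TPM after TGF-β1. The members had a median of 2076 exonic bases in 4 exon blocks, compared with 4508 bases in 11 blocks for tested protein-coding genes. They lay on 23 chromosomes, 29 of them on chromosome 1, and 21 were a single exon block. In the RefSeq gene table of GRCh38.p14, 203 of the 204 names were matched and 201 carried the type lncRNA. LINC02804 and LINC00444 are listed there as protein-coding.

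The count limit was met in every library by 136 members, in 4 or 5 libraries by 44 and in exactly 3 by 24. At its edge, LINC00173, with 10, 15 and 11 counts in control and 4, 2 and 1 after TGF-β1, LINC01504 and LINC02321 lay just inside. LINC00672, with 13, 6 and 17 counts in control and 7, 9 and 8 after TGF-β1, LINC01271 and LINC01341 lay just outside. For 10 genes the 3 libraries at the limit were the 3 controls, and for 6 they were the 3 TGF-β1 libraries. These 16 entered through 1 group and had to differ, and 14 of them were called, which is a consequence of the rule. Those entering through control were LINC00173, LINC00880, LINC01320, LINC01444, LINC01569, LINC02101, LINC02321, LINC02649, LINC02827 and LINC02904, and those entering through TGF-β1 were LINC00319, LINC00862, LINC01583, LINC01969, LINC02551 and LINC02554.

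The comparison of TGF-β1 with control asked which LINC genes responded within 24 hours. Of the 204 members, 201 passed the filter of the fit over all genes, and LINC00629, LINC01969 and LINC02321 did not. At an adjusted p under 0.05 (edgeR quasi-likelihood F test over 14860 genes), 27 members were higher and 42 lower after TGF-β1, 69 of 201 in all or 34.3%. Over all genes tested the share was 44.3%, with 22.2% higher and 22.1% lower, compared with 13.4% and 20.9% of the members. The members were thus called no more often than genes in general. Among other lncRNA genes of RefSeq, 390 of 1189 were called, or 32.8%. A call with a change of at least 2-fold was made for 40 members, or 19.9%, beside 9.06% of all genes tested. Of these, 13 were higher, beside 3.68% of all genes, and 27 lower, beside 5.38%. The median log2 fold change of the members was -0.10 and that of all genes 0.01. The groups did not overlap in 95 of the 201 tested members, or 47.3%, beside 55.6% of all genes tested, and the 69 called members were among them. Among the 136 members at the limit in every library, a subset that leaves out low genes that rose or fell far, 40 were called, or 29.4%. Of these, 4 were 2-fold higher and 10 were 2-fold lower, 10.3% of the subset, beside 9.06% of all genes tested.

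**Figure D1:**
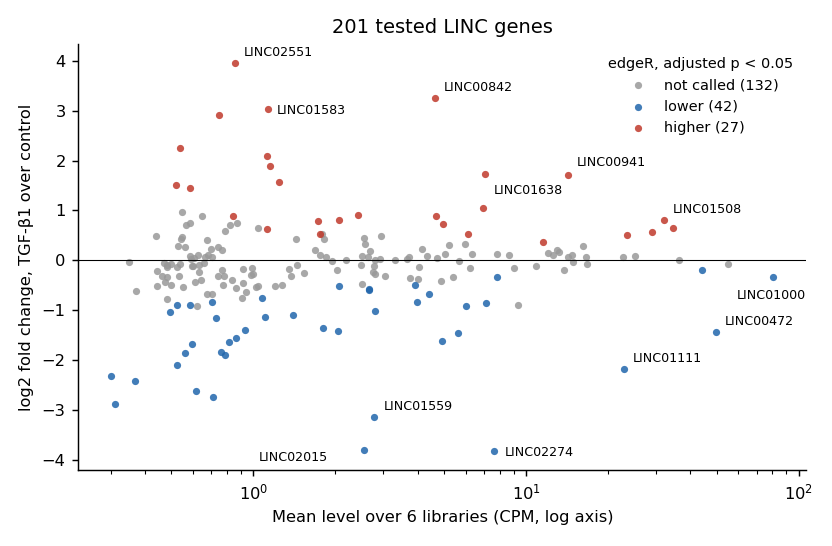
Log2 fold change of the 201 tested LINC genes (y axis, TGF-β1 over control) against the mean level over the 6 libraries (x axis, CPM, log scale). Red points are the 27 genes called higher, blue points the 42 called lower and grey points the 132 not called; changes beyond 8-fold lie among genes under 10 CPM.

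The share called varied with the level of the gene. Under 1 CPM, 27.9% of 86 members and 27.5% of 1683 genes overall were called, and between 1 and 3 CPM the shares were 38.5% of 52 members and 33.9% of all genes. From 3 to 10 CPM they were 40.5% of 37 members and 41.7% of all genes. Within these 3 ranges the members and all genes differed by less than 5 percentage points. Above 10 CPM, 38.5% of 26 members and 49.7% of 9489 genes were called. The 2-fold calls took 23.3%, 21.2%, 16.2% and 11.5% of members from the lowest to the highest range, compared with 21.4%, 18%, 10.8% and 4.92% of all genes. The lowest range holds members that entered through 1 group and had to differ, such as LINC00862, LINC00319, LINC00880 and LINC00173. Its shares are thus partly a consequence of the rule. In the highest range, 3 of 26 members had a 2-fold call. Members under 1 CPM had a median standard error of 0.34 on the log2 scale and those above 10 CPM one of 0.09.

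**Figure D2:**
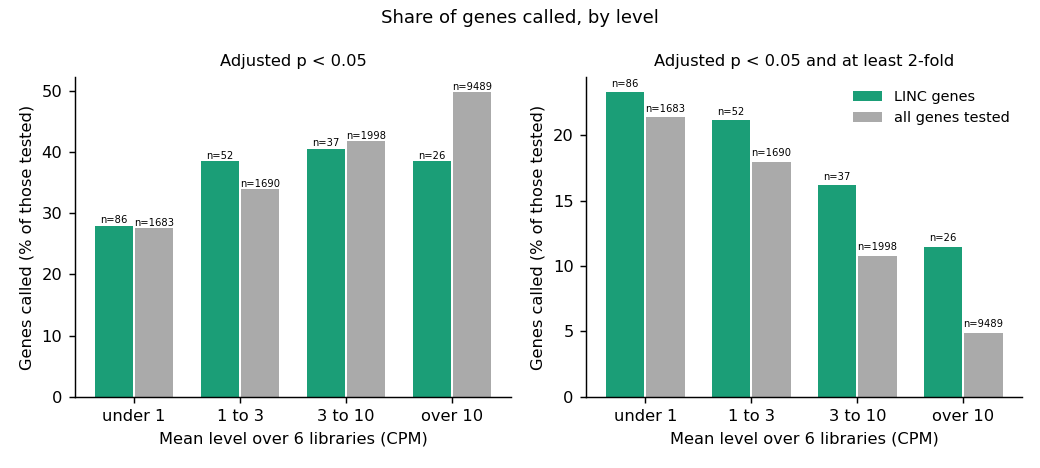
Share of genes called (y axis, % of those tested) by mean level (x axis, CPM) for LINC genes (green) and all genes tested (grey), with the number tested above each bar. The left panel shows calls at adjusted p under 0.05, where the bars of the lowest range are at 27.9% and 27.5%, and the right panel those that also changed 2-fold.

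LINC02551 had the largest rise. This gene (gene-LINC02551, GRCh38, chr11:130844193-130862110) had 0.222, 0.0409 and 0.0426 CPM in the control libraries and 1.42, 2.07 and 1.34 CPM in the TGF-β1 libraries. It was close to absent in control, with 5, 1 and 1 counts, and present in every TGF-β1 library. The log2 fold change was 3.95 ± 0.46 (SE, n = 3 per group, edgeR adjusted p = 4.95e-05), which ranged from 3.57 to 5.11 over the alternative settings, the highest without Control replicate 1. LINC01583 (chr15:82088594-82097694) was at 0.133, 0.368 and 0.213 CPM in control and 2.04, 2.11 and 1.91 CPM after TGF-β1, a log2 fold change of 3.04 ± 0.30 (edgeR adjusted p = 1.33e-05). LINC00862 (chr1:200342544-200373792) was at 0.172 ± 0.0871 CPM in control and 1.32 ± 0.0398 CPM after TGF-β1 (SD), and LINC00319 (chr21:43446601-43453902) at 0.183 ± 0.106 and 0.896 ± 0.147 CPM. All 4 of these genes entered through the TGF-β1 libraries, so the count limit itself kept their groups apart.

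The other large rises came from genes with counts at the limit in control as well, or nearly so. LINC00842 (gene-LINC00842, chr10:46398362-46453306) was at 0.798, 1.06 and 0.767 CPM in control and 8.10, 8.60 and 8.40 CPM after TGF-β1. The TGF-β1 libraries lay close together and far above every control library, with a log2 fold change of 3.25 ± 0.16 (edgeR adjusted p = 5.19e-08), the smallest among the rises. It sits in a duplicated stretch of chromosome 10, so reads shared with a copy make its level uncertain. LINC00941 (gene-LINC00941, chr12:30795681-30802711), which has been studied in gastrointestinal cancers, was at 6.91, 6.17 and 6.90 CPM in control and 23.5, 22.9 and 18.8 CPM after TGF-β1. Its log2 fold change was 1.71 ± 0.10 (edgeR adjusted p = 2.51e-07), and the lowest TGF-β1 library was well above the highest control. LINC01638 (gene-LINC01638, chr22:27221350-27224679) was at 3.46, 2.94 and 3.41 CPM in control and 10.8, 10.1 and 11.7 CPM after TGF-β1. It rose by 1.73 ± 0.12 on the log2 scale (edgeR adjusted p = 7.06e-07), with no overlap.

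LINC00327 (chr13:23469512-23487464) rose from 0.425 ± 0.0378 to 1.82 ± 0.365 CPM and LINC01711 (chr20:58634772-58635738), a gene of 1 exon block, from 0.486 ± 0.156 to 1.81 ± 0.0984 CPM. LINC01411 (chr5:174336354-174527139) was less even in control, with 0.266, 0.736 and 0.852 CPM, and was at 1.96, 1.94 and 1.67 CPM after TGF-β1. These 3 complete the 10 largest rises, none of which lost its call in an alternative setting that tested it. The remaining 17 calls among the rises had log2 fold changes from 0.37 for LINC00680 to 1.51 for LINC01943, with LINC01508, LINC00662 and LINC00673 between them.

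The 300 bases around the annotated start are shown for the 3 largest risers whose start in the RefSeq promoter table is the start of the deposited gene. The set lets the control regions of strongly induced genes be read side by side, and LINC00941 was added after its values were seen. The sequences run 5′ to 3′ on the strand of the gene, from 250 bases before the start to 50 after it (RefSeq, GRCh38.p14), and capitals mark CAGAC or its reverse complement GTCTG, the letters of the SMAD-binding element core.
LINC02551 (chr11:130862061-130862360, reverse strand): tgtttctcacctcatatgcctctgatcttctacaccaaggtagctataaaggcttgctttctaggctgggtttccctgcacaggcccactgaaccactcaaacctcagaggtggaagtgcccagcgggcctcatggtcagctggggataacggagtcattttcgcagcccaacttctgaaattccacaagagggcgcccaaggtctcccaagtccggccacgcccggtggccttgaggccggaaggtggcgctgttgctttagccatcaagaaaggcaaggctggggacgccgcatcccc
LINC00842 (chr10:46398112-46398411, forward strand): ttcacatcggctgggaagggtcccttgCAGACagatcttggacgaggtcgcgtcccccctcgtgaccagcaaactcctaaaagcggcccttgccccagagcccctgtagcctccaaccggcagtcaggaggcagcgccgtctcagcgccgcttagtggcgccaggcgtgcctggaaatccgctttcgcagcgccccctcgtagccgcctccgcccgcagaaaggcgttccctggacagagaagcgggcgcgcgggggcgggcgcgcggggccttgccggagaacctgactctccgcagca
LINC01583 (chr15:82088344-82088643, forward strand): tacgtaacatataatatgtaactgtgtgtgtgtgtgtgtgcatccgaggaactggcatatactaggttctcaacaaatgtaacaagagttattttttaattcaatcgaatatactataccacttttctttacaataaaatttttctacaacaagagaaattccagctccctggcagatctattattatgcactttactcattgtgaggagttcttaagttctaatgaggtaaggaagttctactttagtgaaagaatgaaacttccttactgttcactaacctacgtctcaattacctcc
LINC00941 (chr12:30795431-30795730, forward strand): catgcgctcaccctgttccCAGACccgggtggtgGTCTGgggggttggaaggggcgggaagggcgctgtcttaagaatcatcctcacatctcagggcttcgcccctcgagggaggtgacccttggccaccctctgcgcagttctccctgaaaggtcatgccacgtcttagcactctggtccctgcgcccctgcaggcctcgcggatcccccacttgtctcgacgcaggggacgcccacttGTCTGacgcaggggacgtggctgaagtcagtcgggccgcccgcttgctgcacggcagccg
LINC00941 held 3 matches, LINC00842 held 1, and LINC02551 and LINC01583 held none of these letters in this window. None of the 4 held TGANTCA, the AP-1 letters, or GGAATG, the TEAD letters, on either strand.

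LINC02274 had the largest fall. This gene (gene-LINC02274, chr14:73822559-73830135) was at 14.4, 14.2 and 14.2 CPM in the control libraries and 1.23, 0.869 and 0.907 CPM in the TGF-β1 libraries. Each control library was more than 10 times above each TGF-β1 library. The log2 fold change was -3.82 ± 0.14 (SE, n = 3 per group, edgeR adjusted p = 7.13e-09). LINC02015 (gene-LINC02015, chr3:177816865-177899224) was at 4.48, 4.41 and 5.37 CPM in control and 0.461, 0.165 and 0.382 CPM after TGF-β1, with a log2 fold change of -3.80 ± 0.28 (edgeR adjusted p = 1.25e-06). LINC01559 (gene-LINC01559, chr12:13370671-13376745) was at 5.32, 5.15 and 4.56 CPM in control and 0.614, 0.538 and 0.525 CPM after TGF-β1. It fell by 3.15 ± 0.18 on the log2 scale (edgeR adjusted p = 1.57e-07), and the libraries of each group were close to one another.

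LINC01111 (gene-LINC01111, chr8:76406654-76524356) was far more abundant than these. It was at 34.3, 38 and 39.8 CPM in control and 8.68, 8.02 and 7.78 CPM after TGF-β1, so it changed from among the abundant members to a moderate level. The log2 fold change was -2.19 ± 0.08 (edgeR adjusted p = 6.98e-09), the smallest p of any member. LINC02827 (chr12:3298278-3327103) went from 1.07 ± 0.156 to 0.169 ± 0.0389 CPM, LINC02522 (chr6:10465999-10481946) from 1.26 ± 0.263 to 0.324 ± 0.178 CPM, and LINC02649 (chr10:6326544-6335982) from 0.885 ± 0.279 to 0.237 ± 0.0496 CPM (SD, n = 3). LINC01589 (chr22:45604432-45605647) was at 1.68, 0.981 and 0.895 CPM in control and 0.269, 0.248 and 0.477 CPM after TGF-β1.

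Of the 10 largest falls, LINC02827, LINC02649, LINC02904 and LINC00880 entered through the control libraries, so the count limit itself kept their groups apart. The values of 2 of these, LINC02904 and LINC00880, were also less secure. LINC02904 (chr8:143039209-143054303) had 15, 57 and 17 counts in the control libraries and 7, 1 and 5 in the TGF-β1 libraries. Control library 2 carried most of its reads. Its log2 fold change of -2.74 ± 0.73 (edgeR adjusted p = 0.0187) was no longer called without TGF-β1 replicate 1, without TGF-β1 replicate 3 or with no filter on low counts, and its name has another entry. Without Control replicate 2 the value was -1.90. LINC00880 (chr3:157081667-157123002) had 0.842, 1.06 and 0.682 CPM in control and 0.346, 0.0414 and 0.191 CPM after TGF-β1. Its log2 fold change of -2.11 ± 0.48 (edgeR adjusted p = 0.00438) became -2.91 without TGF-β1 replicate 1 and -1.64 without TGF-β1 replicate 2. It shares 1078 of its exonic bases, or 53.5%, with LINC02029 on the opposite strand, and reads from the 2 genes cannot be told apart where strand was not used. The 10 largest falls were taken from members with a mean of at least 0.5 CPM. The other 32 falling genes had log2 fold changes from -0.20 for LINC00674 to -2.88 for LINC01444, which was under that level.

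**Figure D3:**
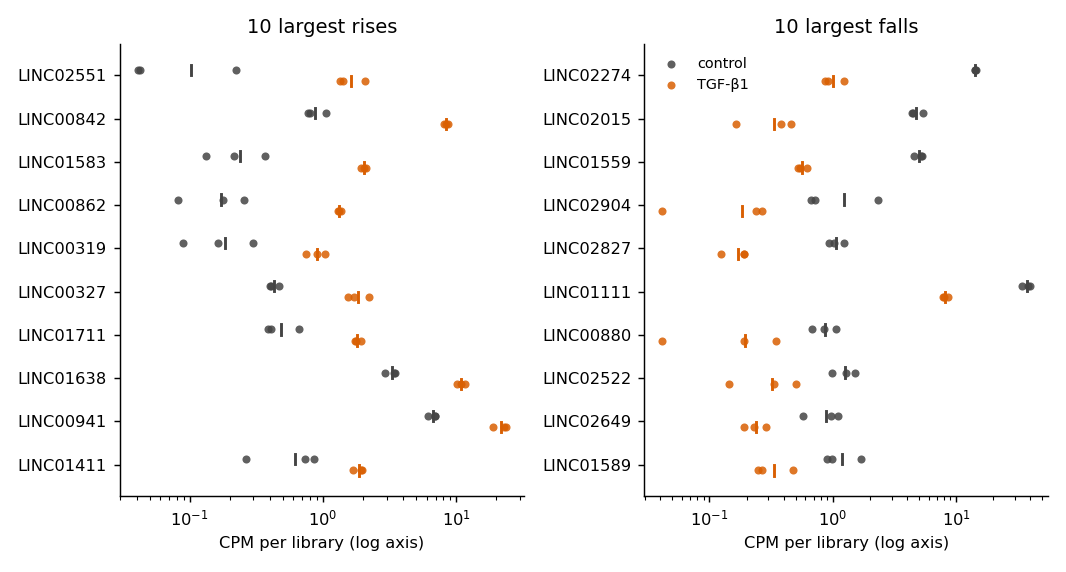
Level per library (x axis, CPM, log scale) of the 10 LINC genes with the largest rise (left) and the 10 with the largest fall (right); grey points are control libraries, orange points TGF-β1 libraries, and short bars the group means. The groups do not overlap for any of the 20 genes, which the naming rule required, and LINC02904 has 1 control library apart from the other two.

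The same window is shown for 2 of the falling genes, LINC02015 and LINC01589, with the same letters in capitals. LINC02274 and LINC01559 are not in the promoter table.
LINC02015 (chr3:177816615-177816914, forward strand): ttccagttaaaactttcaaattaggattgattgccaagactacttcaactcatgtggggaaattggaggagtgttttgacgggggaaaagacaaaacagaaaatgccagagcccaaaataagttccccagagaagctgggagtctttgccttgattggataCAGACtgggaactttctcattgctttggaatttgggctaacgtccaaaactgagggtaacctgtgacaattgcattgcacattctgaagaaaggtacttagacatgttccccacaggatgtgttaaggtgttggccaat
LINC01589 (chr22:45605598-45605897, reverse strand): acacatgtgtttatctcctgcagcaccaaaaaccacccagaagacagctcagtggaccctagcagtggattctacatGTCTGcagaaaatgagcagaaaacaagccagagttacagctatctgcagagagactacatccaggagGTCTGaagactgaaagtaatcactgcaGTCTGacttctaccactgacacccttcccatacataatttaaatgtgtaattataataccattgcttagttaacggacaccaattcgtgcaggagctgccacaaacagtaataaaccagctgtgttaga
LINC02015 held 1 match and LINC01589 held 3. Over the 142 members with an entry in the table, 43.7% of promoters held CAGAC on either strand, beside 45.3% of all 35116 promoters. By call, the share was 47.4% of 19 promoters of risers, 40.0% of 25 promoters of falling genes and 43.9% of the other 98. GGAATG was in 14.1% of the members' promoters and 14% of all promoters. TGANTCA was in 13.4% of the members' promoters and 7.71% of all promoters, with 15.8% among risers, 16% among falling genes and 12.2% among the rest. The motifs were searched on both strands and do not contain one another, and a match in such a window is a description and not a binding site.

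Of the 5 most abundant members by CPM, 3 were called lower and LINC00472 changed by more than 2-fold. Above 10 CPM, 15.4% of 26 members and 21.6% of 9489 genes overall were called lower. LINC00472 (gene-LINC00472, chr6:71407864-71420745), described as a tumour suppressor in breast cancer, was at 71.8, 72.5 and 73.0 CPM in control and 22.2, 30.3 and 28.0 CPM after TGF-β1. It fell by 1.44 ± 0.10 on the log2 scale (edgeR adjusted p = 1.37e-06), from a tight control group to TGF-β1 libraries with a wider spread. LINC01000 (chr7:128641241-128660998), the most abundant by CPM, was at 88.4, 88.8 and 92.6 CPM in control and 57.2, 77.2 and 79.4 CPM after TGF-β1. Its log2 fold change of -0.34 ± 0.11 (edgeR adjusted p = 0.0429) was no longer called without any single control library. LINC00674 (chr17:68101555-68135929) went from 47.0 ± 2.62 to 41.0 ± 2.21 CPM (edgeR adjusted p = 0.0326), a call lost in 3 of 12 alternatives. LINC00205 (chr21:45288052-45297354) was at 56.5 ± 2.54 and 53.8 ± 3.86 CPM and LINC00839 (chr10:42475491-42495337) at 36.6 ± 0.569 and 36.5 ± 2.50 CPM. Neither of the last 2 was called, with edgeR adjusted p of 0.412 and 0.98, although LINC00205 was called lower when libraries were scaled by total counts alone.

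A list of 18 LINC genes with roles described in other cells was followed as well. Of these, 11 were members and 7 were under the count limit. LINC00941, LINC00673 and LINC00662 were higher, and LINC00472 and LINC00467 lower, which is 5 of 11, beside the 44.3% called among all genes. LINC00673 (chr17:72403322-72592804), studied in pancreatic cancer, was at 27.3, 26.2 and 27.4 CPM in control and 41.4, 42.1 and 42.6 CPM after TGF-β1, with little spread within either group (log2 fold change 0.64 ± 0.06, edgeR adjusted p = 6.41e-06). LINC00662 (chr19:27790493-27793940) went from 3.29 ± 0.288 to 6.06 ± 0.58 CPM, with 0.88 ± 0.14 as the log2 fold change (edgeR adjusted p = 0.000381). LINC00467 (chr1:211382755-211432535) went from 4.57 ± 0.944 to 3.22 ± 0.382 CPM, and its call (edgeR adjusted p = 0.0368) was lost with DESeq2 and without any of 4 libraries. LINC00511, LINC00665, LINC01116, LINC01503, LINC00963 and LINC02381 were not called. LINC00511 was at 1.55 ± 0.192 CPM in control and 2.07 ± 0.364 CPM after TGF-β1, and LINC01503, with 1.14 ± 0.397 and 0.672 ± 0.0446 CPM, was just short of the threshold (edgeR adjusted p = 0.0528) and past it in 3 alternatives. LINC00665, LINC01116 and LINC00963 had log2 fold changes of -0.07, -0.14 and 0.07. Under the limit, LINC00460 had 25 counts summed over the controls and 20 over the TGF-β1 libraries, LINC01705 had 4 and 19, LINC01615 had 16 and 6, LINC00707 had 8 and 2, and LINC00261 had 2 and 0. LINC01133 and LINC00312 had no count, which at this depth does not show that they are absent.

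Changes were then set beside the nearest protein-coding gene, defined by the gap between gene bodies. The gap was 0 for 14 members, up to 10 kb for 60, up to 100 kb for 85 and larger for 45, with a median of 22107 bases and a maximum of 1411380 bases between LINC00662 and UQCRFS1. For 160 members both genes were tested, with 151 different neighbours. In 33 of these pairs both were called, 23 in the same direction (13 higher and 10 lower) and 10 in opposite directions. Pairs called in the same direction made up 14.4% of the 160, compared with 15.7% of 9828 pairs of a tested protein-coding gene and its own nearest protein-coding gene. Of pairs with both called, 69.7% moved the same way for LINC genes and 67.3% for protein-coding genes. The neighbour of a called member was itself called in 54.1% of 61 cases and the neighbour of a member that was not called in 52.5% of 99. Spearman's rho of the log2 fold changes was 0.30 across the 160 pairs and 0.20 across the protein-coding pairs, a description over pairs that share libraries. It was 0.25 for the 127 pairs within 100 kb and 0.32 for the 150 pairs whose bodies did not overlap. Protein-coding pairs under the same limits gave 0.21 and 0.20. By gap, rho was -0.15 for 10 overlapping pairs, 0.36 for 53 up to 10 kb, 0.23 for 64 up to 100 kb and 0.46 for 33 beyond. Protein-coding pairs in these ranges gave 0.22, 0.22, 0.18 and 0.11. In 13 pairs with divergent starts within 5 kb, 3 LINC genes and 4 neighbours were called, and in no pair both. Both were called in 242 of 1187 such pairs of protein-coding genes, and 13 pairs are too few for a comparison.

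**Figure D4:**
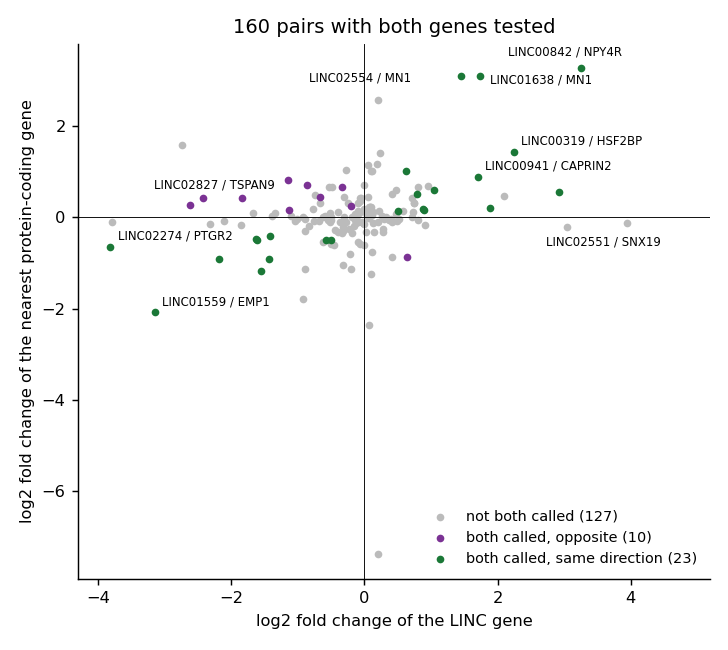
Log2 fold change of the nearest protein-coding gene (y axis) against that of the LINC gene (x axis) for the 160 pairs with both tested. Green points are the 23 pairs called in the same direction, purple points the 10 called in opposite directions and grey points the other 127; the lowest point is LINC00920 with CDH5, which had no count in any TGF-β1 library, so its fitted value is not a bound.

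The pairs that moved most strongly together ranged from overlapping gene bodies to gaps of over 500 kb. LINC00842 and NPY4R, a receptor for pancreatic polypeptide 5242 bases away, had log2 fold changes of 3.25 and 3.27 ± 0.30, the latter from 0.394 ± 0.21 to 3.87 ± 0.258 CPM. LINC00319 ended 85 bases from the end of HSF2BP, a meiotic factor, which went from 3.42 ± 0.754 to 9.20 ± 1.41 CPM (log2 fold change 1.43 ± 0.18). With such a gap and no use of strand stated, reads that run past the end of a gene cannot be told apart from those of its neighbour. LINC00862 was 31159 bases from ZNF281, a zinc finger transcription factor, which went from 114 ± 0.498 to 168 ± 11.4 CPM. Both LINC01638 and LINC02554 had MN1, a transcriptional coregulator, as nearest gene at 523598 and 430437 bases. MN1 went from 4.70 ± 0.256 to 40.2 ± 1.03 CPM, with 3.10 ± 0.07 as its log2 fold change (edgeR adjusted p = 3.44e-10), and LINC02554 rose by 1.45 on the same scale. On the falling side, LINC01559 paired with EMP1, LINC01111 with ZFHX4 and LINC00472 with OGFRL1. ZFHX4, a zinc finger homeobox factor, was 156863 bases from LINC01111 and went from 65.3 ± 2.09 to 34.7 ± 5.94 CPM, and OGFRL1 was 98805 bases from LINC00472 and went from 698 ± 34.9 to 371 ± 39.1 CPM. LINC00260 lay within the body of ATP2B4, a plasma membrane calcium pump, and the log2 fold changes were -1.56 and -1.18. It is 1 exon block on the same strand, at 1.29 CPM in control where ATP2B4 was at 242 CPM. Reads from unspliced ATP2B4 RNA cannot be told apart from those of LINC00260.

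The opposite pairs included LINC00673 and SLC39A11, a zinc transporter that went from 19.9 ± 0.509 to 11.0 ± 0.126 CPM (log2 fold change -0.86 ± 0.07). SLC39A11 was also the nearest gene of LINC00511. LINC01589 fell while FBLN1, the matrix protein fibulin-1 at 3297 bases, rose from 154 ± 3.45 to 206 ± 5.36 CPM. LINC02827 fell while TSPAN9, a tetraspanin 11717 bases away, rose from 43.3 ± 3.47 to 52.7 ± 1.70 CPM. The others were LINC00265 with RALA, LINC00674 with KPNA2, LINC00894 with EOLA2, LINC01320 with FAM98A, LINC01836 with PTBP1, LINC02225 with ACTBL2 and LINC02535 with NT5E. Among members with a strong change, LINC02551 had a neighbour that was not called. SNX19, 4140 bases away, was at 69.7 ± 0.146 CPM in control and 63.9 ± 6.17 CPM after TGF-β1. TBL1XR1, nearest to LINC02015 at 619383 bases, was at 223 ± 7.57 and 206 ± 11.3 CPM. LINC01969, which did not pass the filter, lay 13045 bases from COL1A1, the collagen gene with a log2 fold change of 3.30.

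Within 500 kb the pattern differed between genes. The loci described are examples from the named members, and of all genes tested 22.1% were called lower and 22.2% higher. Around LINC00674, itself called lower, 10 genes were tested and the 5 called were all higher. Around LINC01559, the 5 tested protein-coding genes were all called lower. EMP1, an epithelial membrane protein, fell by 2.08 ± 0.13 on the log2 scale, GSG1 by 3.96 ± 0.53, GPRC5A, an orphan receptor induced by retinoic acid, by 1.5 ± 0.08, HEBP1 by 0.45 ± 0.08 and FAM234B by 0.24 ± 0.07. Around LINC02274, 17 genes were tested and 8 were called, 3 lower and 5 higher. The falls next to it were those of PTGR2, a prostaglandin reductase (-0.64 ± 0.09), and MIDEAS (-0.71 ± 0.06), far smaller than that of LINC02274 itself. Around LINC00842, 5 of 6 tested genes were higher, with ANXA8L1 at 2.26 ± 0.14 and the rest of those called, NPY4R apart, at 0.36 or less. ANXA8L1 and NPY4R have near-identical copies on chromosome 10, so their values are uncertain. Around LINC00941, CAPRIN2, an RNA-binding protein 40730 bases away, was the 1 called gene of 5, with a log2 fold change of 0.89 ± 0.06. SOX9, a transcription factor 276906 bases from LINC00673, rose by 3.18 ± 0.14 (edgeR adjusted p = 2.99e-08), and ADAMTS15, a secreted protease 365978 bases from LINC02551, by 2.15 ± 0.10 (edgeR adjusted p = 4.69e-08). SOX9 and ADAMTS15 were picked after their values were seen.

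**Figure D5:**
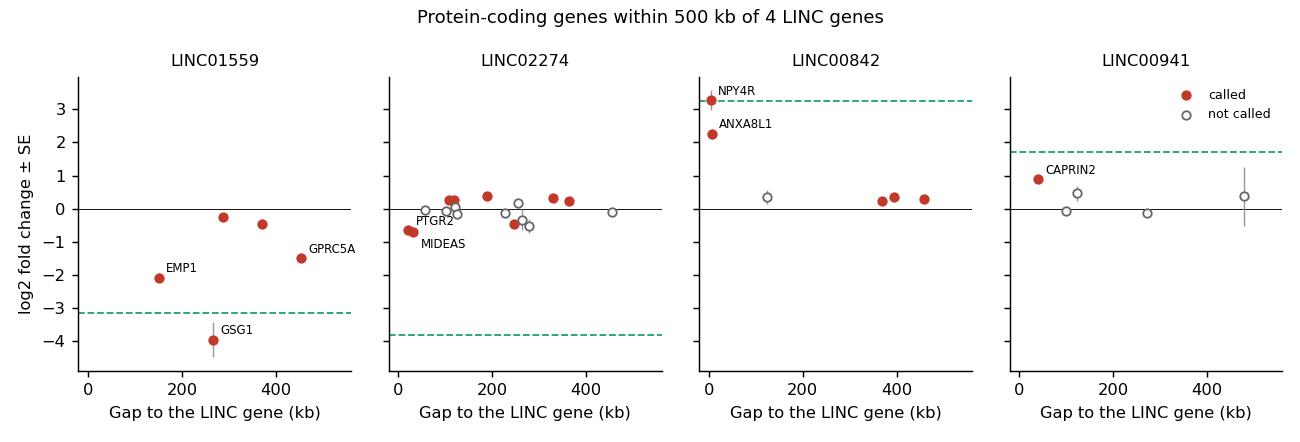
Log2 fold change ± SE (y axis) of tested protein-coding genes within 500 kb of LINC01559, LINC02274, LINC00842 and LINC00941 against the gap between the gene bodies (x axis, kb); filled points were called, open points were not, and the dashed line is the LINC gene's own value. All 5 genes around LINC01559 lie below 0, and around LINC00941 the 1 called gene is CAPRIN2.

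Members also lay near one another. With 500 kb as the limit, 53 members formed 24 groups. In 5 of the groups, each a pair, both members were called in the same direction. Of all tested members 34.3% were called, and of all genes 44.3%. Groups of other genes were not counted in this way, so the 5 are a description only. LINC01638 and LINC02554 on chromosome 22 were higher, with log2 fold changes of 1.73 and 1.45. LINC00880 and LINC02029 (-2.11 and -0.90), LINC02225 and LINC02101 (-1.15 and -1.04), LINC02861 and LINC01569 (-1.42 and -1.67) and LINC00893 and LINC00894 (-0.59 and -0.67) were lower. A group of 5 on chromosome 1 held 1 riser, LINC00115, and 1 falling gene, LINC01786. Exonic bases were shared with another entry by 32 members, and by more than 50% of their exons in LINC00630, LINC00880 and LINC02029. For these, reads from the 2 overlapping genes cannot be told apart. LINC00880 and LINC02029 share such bases with each other, so their shared direction may not be 2 separate observations.

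Other noncoding RNA genes, taken from a list of 39 names that are not numbered LINC genes, changed in both directions. Of these, 31 were tested, 13 were higher and 7 lower, where 22.2% and 22.1% of all genes tested were. MIR31HG, the host gene of miR-31, rose from 0.826 ± 0.167 to 5.02 ± 0.372 CPM (log2 fold change 2.60 ± 0.19), MIR100HG from 1.11 ± 0.158 to 5.51 ± 1.02 CPM (2.31 ± 0.19) and CASC15 from 2.14 ± 0.241 to 5.99 ± 0.246 CPM (1.48 ± 0.14). The falls included LUCAT1, an RNA induced by stress and inflammation, from 15.7 ± 0.878 to 3.95 ± 0.59 CPM. NEAT1, the scaffold of nuclear paraspeckles, fell from 296 ± 45.0 to 134 ± 14.2 CPM. MALAT1, a nuclear speckle RNA, fell from 11.5 ± 1.55 to 7.74 ± 1.07 CPM. Poly(A) RNA was selected, so forms of NEAT1 and MALAT1 without a poly(A) tail were largely not sampled. MEG3, FENDRR, LINC-ROR and MIR210HG had no count in any library, which at this depth does not show that they are absent. MIR210HG has 2 entries of its name, so its value is uncertain.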

How the data were processed

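Poly(A) RNA of 6 libraries was selected with oligo(dT), converted to cDNA from random hexamer primers and sequenced, so transcripts without a poly(A) tail were largely not sampled. The submitters' processing notes name CASAVA, featureCounts 2.0.1, DESeq2 1.16.1 and hg38. The aligner, and whether strand was used in counting, are not given in the sources used here. The authors deposited raw counts per gene and TPM values, which they computed from counts and gene length. Each table held 42095 entries, with 7 broken records rejoined. Entries without a gene name (598, with 0.396% to 0.464% of counts) were left out.

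The counts of 41497 named entries were scaled with TMM, filtered with filterByExpr (minimum count 10) and tested with the quasi-likelihood F test of edgeR 4.0.16 (robust, two-sided) on 3 control and 3 TGF-β1 libraries. P values were adjusted by Benjamini-Hochberg over 14860 genes, and genes were called at an adjusted p under 0.05. The standard error was the log2 fold change divided by the square root of F. CPM values used TMM-scaled library sizes, TPM served to compare levels between genes, and counting error falls as depth rises. Protein-coding genes were those of the RefSeq table (GRCh38.p14), and LINC names were left out of them. The member rule used the counts of these same libraries. The members and gene lists were chosen with earlier results of these data known.

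Named members were the 10 largest rises and falls among called members whose groups did not overlap and whose mean reached 0.5 CPM, the 5 with the highest CPM, the 3 smallest p in each direction, a list of 18 with described roles, the 3 on either side of the count limit, and their neighbours. Further members and genes were named where a count, a pair or a locus was described. On simulated data with 200 changed genes among 14860, edgeR recovered 70.2% of those changed by 1 on the log2 scale and 93.1% of those changed by 2, and 7.22% of its calls were unchanged genes. In the real libraries 44.3% of genes were called, a far larger share than was changed there. These rates therefore need not hold for the calls reported. Alternatives were DESeq2 1.42.0, RLE size factors, total counts, 2 other filters, a replicate block, other limits on members and pairs, and leaving out each library. R 4.3.3, limma 3.58.1, Python 3.11.15, pandas 2.3.3 and scipy 1.17.1 were used. Part of the list of TGF-β target genes used to check the treatment is not reported here.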

Additional observations from a re-analysis of the deposited data

How the results depend on the processing

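The members called numbered 69 in all. With the same genes, DESeq2 called 55, of which 54 were called in the same direction by edgeR. RLE size factors gave 70 (69 shared) and no filter on low counts gave 67 (63 shared). Scaling by total counts alone shifted all genes by a median of -0.11 on the log2 scale and gave 78 (67 shared), 25 higher and 53 lower. A filter on a mean of at least 50 counts left fewer members to test, with 34 called, 14 higher and 20 lower, 12 changed 2-fold (4 higher and 8 lower) and 12 pairs called in the same direction as the neighbour. Of the members at the limit in all 6 libraries, 40 of 136 were called, a choice that leaves out low genes with a large change. Leaving out 1 library gave 57 to 70 called members, 23 to 30 of them higher and 32 to 42 lower, 36 to 39 changed 2-fold, 12 to 13 higher and 24 to 26 lower, 19 to 24 pairs and 19 to 21 of the other noncoding RNAs. Over all genes, the same gave 5290 to 7138 calls. Among the named members, LINC02904, LINC01000, LINC00674, LINC00467, LINC01503, LINC00205 and LINC02381 changed sides of the threshold in at least 1 setting, and the cause was not tested.

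Same-numbered libraries of the 2 groups had deviations that correlated at 0.111, -0.0117 and 0.0762 across genes, so the numbers were not taken to pair the samples. With the replicate number as a block, 68 members were called, 64 of them the same, 39 changed 2-fold, and 23 pairs shared a direction. Leaving out the members whose name has another entry gave 68 calls. That setting, the counts by direction and the correlation with the neighbour under each fit were chosen after seeing the data. Members under 1 CPM had a median standard error of 0.34 on the log2 scale.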
